A study of Gallus gallus with 50 samples.

Results

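COL4A1, COL4A2, COL4A5, NID1, NID2 and SPARC code for proteins of the basement membrane or for a protein that binds them, and they are described here in the small intestinal mucosa of broiler chickens. Every probe set with one of these symbols as its single gene symbol in the platform annotation was taken, which gave 21 of the 38382 probe sets tested and 6 of 13009 named genes. Male Cobb 500 chicks received 1 of 5 feeds, and RNA of mucosal cells scraped from the jejunum and the ileum was hybridised on day 10 to the Affymetrix chicken genome array. Jejunum and ileum of the same 25 birds, 5 on each feed, were hybridised to 50 arrays. By their labels the birds belong to 3 batches, each with 1 or 2 birds of every feed.

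The control feed had no supplement. The feed called LPC low carried 9.5 g/T of lysophosphatidylcholine (LPC, a phospholipid with a single fatty acid chain) purified from lysolecithin, and LPC high carried 19 g/T. Lysolecithin low supplied the same 9.5 g/T of LPC as 250 g/T of lysolecithin, the mixture itself, and lysolecithin high supplied 19 g/T as 500 g/T. Purified LPC was put on a carrier, and the lysolecithin product (Lysoforte) was also on a carrier. All 4 comparisons with control use the same 5 control birds. Chicks were held in floor pens of 25. The labels do not link feeds to pens, and pen and feed cannot be told apart. The title of the study names collagen expression in the jejunum, so the direction of the collagen genes is not independent evidence.

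Basement membranes are thin sheets of extracellular matrix that lie under the gut epithelium and around capillaries and smooth muscle cells. Collagen IV chains assemble as triple helices that link into a network, laminins form another network, and nidogens bind both. SPARC is a secreted calcium-binding glycoprotein that binds collagens, collagen IV among them, and is made by fibroblasts and endothelial cells. In the gut, most collagen IV and nidogen RNA is found in mesenchymal and endothelial cells rather than in epithelium. In bulk scrapings, fewer cells of a type and less RNA per cell cannot be told apart, which holds for every value below.

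Signals are on a log2 scale, and levels are compared only within a probe set. The brightest probe set of each gene, by its mean over the 50 arrays, stands for the gene. Before the results, 5 arrays from 4 birds need to be named as in doubt. On a score of segment marker genes, the array labelled jejunum control replicate 2 (-5.05) and that labelled jejunum LPC low replicate 4 (-5.99) lay on the ileum side of the halfway value of -1.80. Those labelled ileum LPC low replicate 1 (3.51) and ileum lysolecithin high replicate 4 (3.35) lay on the jejunum side. The ileum array of LPC low replicate 4 is the other array in doubt, because the pair of that bird did not match best with each other. With all arrays kept, the jejunum score averaged 0.72 in control birds (SD 4.27), -0.95 with LPC low (3.08) and 2.49 with lysolecithin low (1.85). It averaged 3.14 with LPC high (1.44) and 4.41 with lysolecithin high (1.47). The part of this score in the diet differences was not tested. Epithelial markers, which both segments share, averaged 11.2 to 11.9 on every array. They check for mucosa and not for the labelled segment.

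In the jejunum all 6 genes had their highest group mean in birds fed lysolecithin high and the next highest in birds fed LPC high. Against control the differences for lysolecithin high were 0.88 to 2.00 (log2), and no probe set of the 6 genes passed the adjusted threshold of 0.05. In the ileum the order was different: LPC high birds had the lowest mean of the 10 groups for 5 of the 6 genes. The plot of signals by bird shows the spread behind these means.

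**Figure D1:**
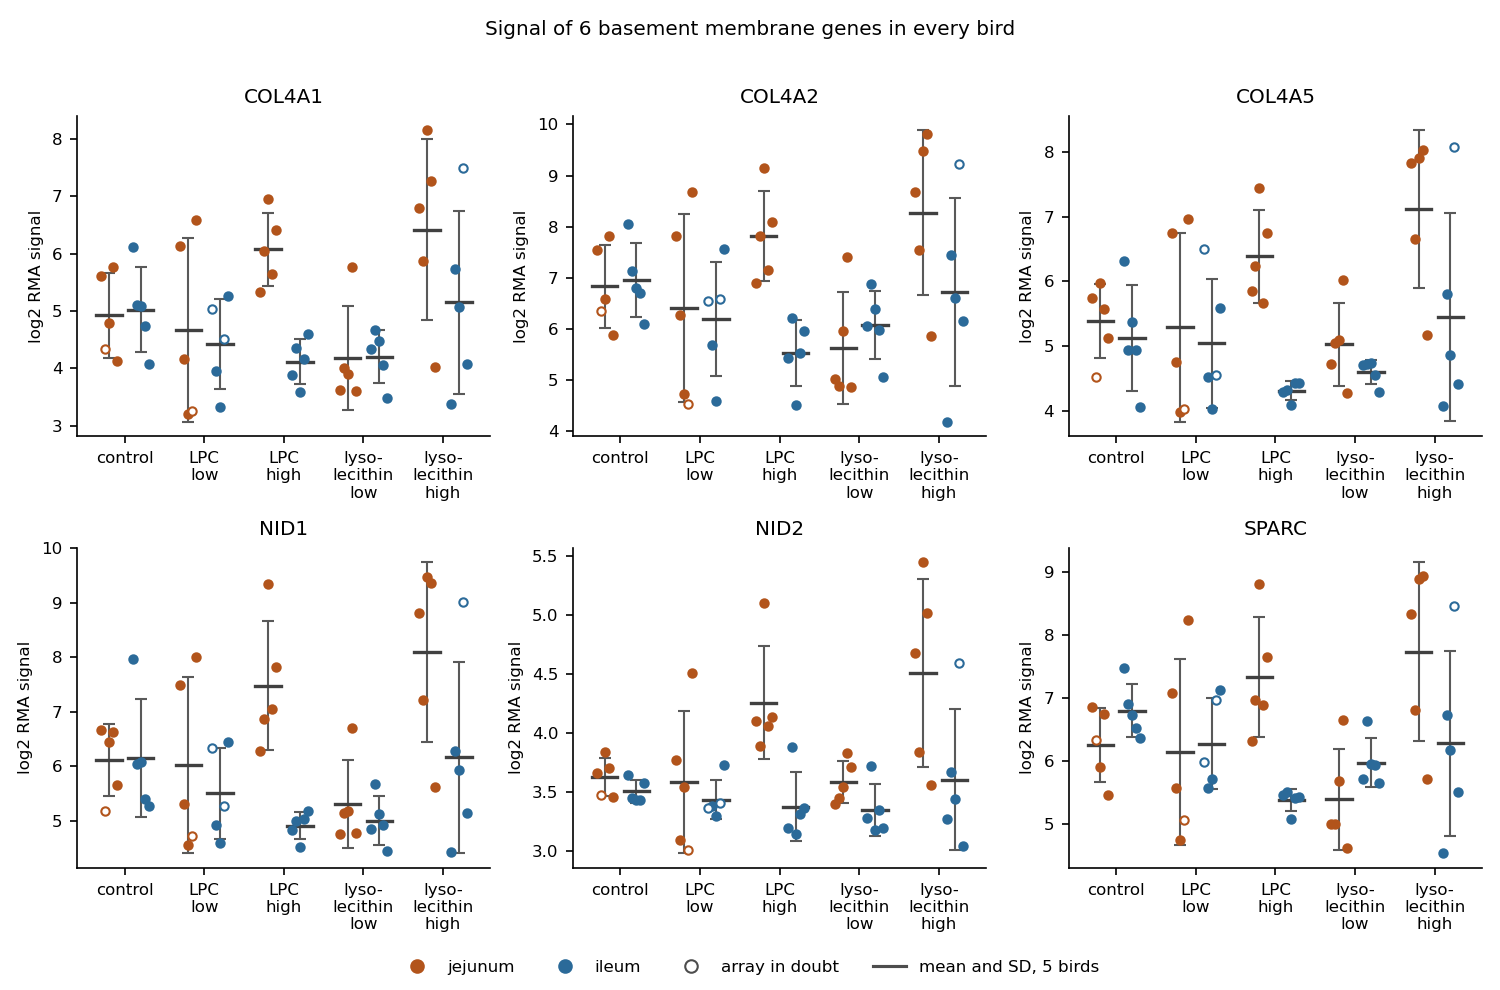
Log2 signal of the brightest probe set of each of the 6 genes (y axis) by segment and diet (x axis), with a point per bird, orange for the jejunum and blue for the ileum, bars for the mean and SD of 5 birds and open points for arrays in doubt. Jejunum lysolecithin high and LPC high birds hold the highest means, and 1 lysolecithin high bird sits among the control birds or just below them in every gene.

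COL4A1 and COL4A2 code for the collagen IV chains that make up the most widespread collagen IV molecule. COL4A1 signals of the 5 jejunum control birds were 5.61, 4.33, 4.79, 5.77 and 4.12, the second of these from the array in doubt. Birds fed lysolecithin high had 6.79, 5.87, 8.15, 7.26 and 4.02. The first 4 of these lay above every control and the last lay below every control, so the groups overlapped. The difference was 1.57 ± 0.72 (log2, SE; 95% interval 0.08 to 3.06), with an adjusted p of 0.257 in limma. Birds fed LPC high had 5.33, 6.04, 6.96, 5.64 and 6.41, of which 3 were above all controls. The LPC high difference was 1.27 ± 0.72 (adjusted p = 0.547 in limma).

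COL4A2 signals were 7.54, 6.36, 6.58, 7.82 and 5.88 in jejunum control birds. They were 8.68, 7.55, 9.49, 9.81 and 5.86 in birds fed lysolecithin high, with 3 birds above all controls and replicate 5 again below them. The difference was 1.50 ± 0.81 (95% interval -0.17 to 3.18; limma adjusted p = 0.330). LPC high birds had 6.90, 7.81, 9.14, 7.15 and 8.09, and 2 of them exceeded every control. Here the difference was 1.11 ± 0.80 (limma adjusted p = 0.656).

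COL4A5 codes for a collagen IV chain of more restricted basement membranes, best known in mammals from the kidney glomerulus. Its signals were 5.74, 4.53, 5.97, 5.58 and 5.13 in jejunum control birds and 7.82, 6.66, 7.90, 8.02 and 5.17 with lysolecithin high. Replicates 1 to 4 of the supplemented birds were above all controls, and replicate 5 lay among them. The difference of 1.79 ± 0.61 (95% interval 0.52 to 3.06) had the lowest adjusted p of the brightest probe sets, 0.146 in limma. LPC high birds had 5.85, 6.24, 7.44, 5.67 and 6.74, with 3 above all controls. Their difference was 1.08 ± 0.61 (limma adjusted p = 0.545).

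NID1 codes for nidogen-1, the main linker between the laminin and collagen IV networks. Signals were 6.67, 5.19, 6.45, 6.63 and 5.66 in jejunum control birds and 8.81, 7.22, 9.47, 9.36 and 5.63 with lysolecithin high. Again 4 of 5 supplemented birds were above every control, and replicate 5 lay within the control range. At 2.00 ± 0.78 (95% interval 0.39 to 3.61) this was the largest of the 6 differences, with a limma adjusted p of 0.191. LPC high birds had 6.29, 6.87, 9.35, 7.05 and 7.82, 4 of them above all controls, and a difference of 1.45 ± 0.77 (limma adjusted p = 0.517).

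NID2 codes for nidogen-2, the other nidogen, with overlapping binding partners, and it was read by a single probe set near the low end of the signal range. Control birds had 3.66, 3.47, 3.84, 3.70 and 3.46 in the jejunum. Lysolecithin high birds had 4.68, 3.84, 5.45, 5.02 and 3.56, of which 3 were above all controls and replicate 2 equalled the highest control. The difference was 0.88 ± 0.32 (95% interval 0.22 to 1.54; limma adjusted p = 0.166). LPC high birds had 4.10, 3.89, 5.10, 4.06 and 4.14, and all 5 lay above all 5 controls. That complete separation was seen for 1.97% of all probe sets in this comparison, and the LPC high difference of 0.67 ± 0.32 did not pass (limma adjusted p = 0.451).

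SPARC signals in jejunum control birds were 6.86, 6.33, 5.91, 6.75 and 5.46. In birds fed lysolecithin high they were 8.33, 6.81, 8.88, 8.93 and 5.72, with 3 birds above all controls and 2 within their range. The difference of 1.51 ± 0.69 had a 95% interval of 0.08 to 2.94 and a limma adjusted p of 0.254. LPC high birds had 6.32, 6.97, 8.80, 6.89 and 7.65, 4 of them above all controls, and a difference of 1.14 ± 0.69 (limma adjusted p = 0.577). A dimmer SPARC probe set, Gga.2613.1.S1_s_at, showed the lowest adjusted p of all 21 in the lysolecithin high comparison. Its control signals were 5.29, 4.53, 4.99, 5.58 and 4.43 and its lysolecithin high signals 8.22, 6.38, 8.47, 8.53 and 5.55, and only replicate 5 fell within the control range. Its difference was 2.43 ± 0.69 with a limma adjusted p of 0.0913.

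Counted over probe sets, 0 of 21 passed in the comparison of lysolecithin high with control, where 0.829% of all 38382 probe sets did. At an unadjusted p under 0.05 there were 9 of 21, against 6828 of the 38382, and 5 of the 6 brightest. For LPC high against control 0 of 21 passed, with 0.112% of all probe sets called. An unadjusted p under 0.05 was found for 3 of 21, against 4179 of the 38382. The median difference of the 6 genes was 1.54 with lysolecithin high and 1.12 with LPC high, while the median over all 13009 genes was 0.03 and 0.00. Within the 3 batches the LPC high difference of NID1 was 0.65, 2.81 and 1.77 and that of SPARC 0.05, 2.47 and 1.81, so the size varied between batches and the sign did not. The plot of differences shows that the 95% intervals of 5 genes excluded 0 for lysolecithin high and that those of NID2 alone did so for LPC high.

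**Figure D2:**
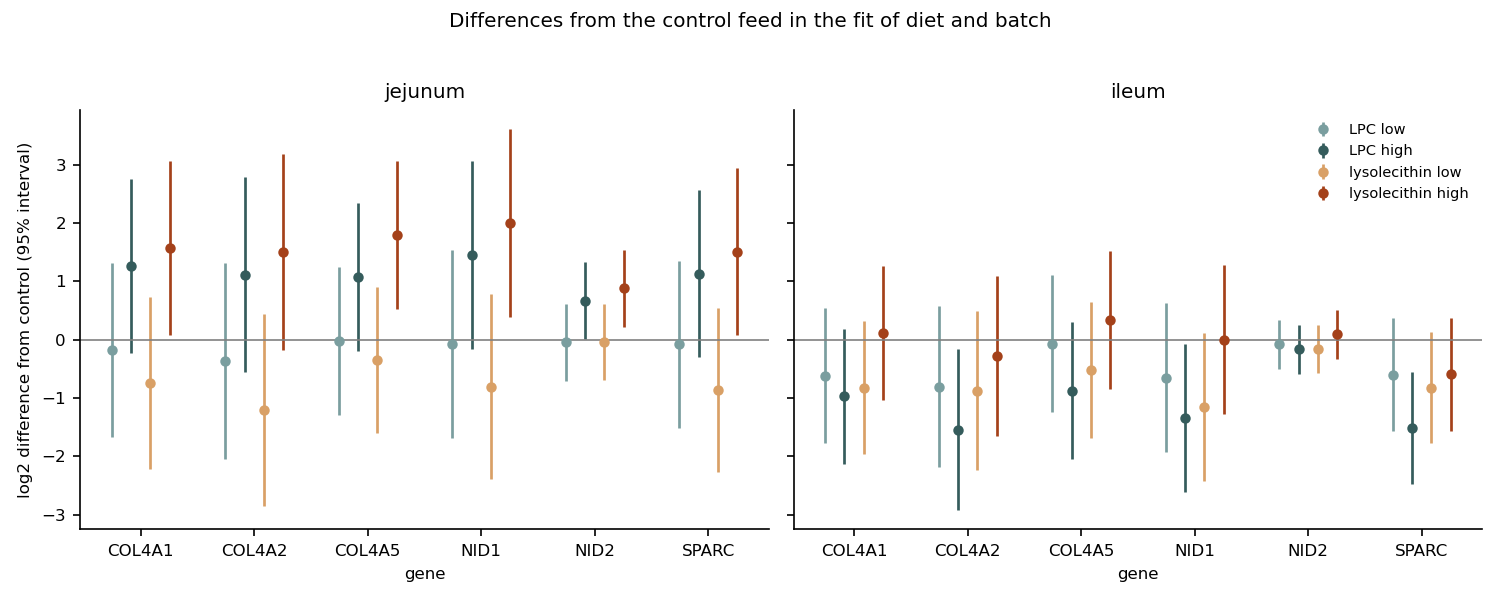
Difference from control of each of the 6 genes (log2, y axis) for the 4 supplemented diets in the jejunum (left) and the ileum (right), from the limma fit with batch as a term, with 95% intervals as error bars. Jejunum differences are 0.88 to 2.00 for lysolecithin high and 0.67 to 1.45 for LPC high, and all 6 ileum differences for LPC high are negative.

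At the low level neither product had a jejunum mean above control in any of the 6 genes. The SEs of these differences were 0.31 to 0.81, so a rise at this level is not excluded. LPC low differed from control by -0.37 (COL4A2) to -0.02 (COL4A5), with 0 of 21 probe sets passing in limma and 0 at an unadjusted p under 0.05; 0.00261% of all probe sets passed. The spread of these birds was wide: NID1 was 7.49, 5.31, 4.57, 4.72 and 8.01, so that 2 birds lay above all controls and 2 below. Replicate 4, whose array is in doubt, is among the low birds. The differences of COL4A1 within the 3 batches were 1.16, -1.59 and 0.80, so the sign differed between batches.

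Lysolecithin low birds had lower jejunum means than control for all 6 genes, by -1.21 ± 0.79 for COL4A2, -0.86 ± 0.68 for SPARC, -0.80 ± 0.77 for NID1, -0.74 ± 0.71 for COL4A1, -0.36 ± 0.60 for COL4A5 and -0.04 ± 0.31 for NID2. None passed in limma (adjusted p = 0.723 to 0.989 for these 6, 0 of 21 at an unadjusted p under 0.05), where 0.0495% of all probe sets did. COL4A2 was 5.02, 4.89, 5.96, 7.41 and 4.87 in these birds, with 3 below every control. Within batches SPARC gave -1.59, -0.16 and -0.83, and all 6 genes were negative in each batch except NID2 in batch 3 (0.25). Replicate 4 was the highest bird of its group in all 6 genes.

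The contrast of high with low lysolecithin, the same product at both levels, was larger than either contrast with control. This follows by arithmetic from high means above control and low means below it, and is no separate result. It was 2.81 ± 0.78 for NID1, 2.71 ± 0.81 for COL4A2, 2.38 ± 0.69 for SPARC, 2.31 ± 0.72 for COL4A1, 2.15 ± 0.61 for COL4A5 and 0.92 ± 0.32 for NID2. Adjusted p in limma was 0.223 to 0.248 and 0 of 21 passed, with 0.00261% of all probe sets called. An unadjusted p under 0.05 was found for 12 of 21, with all 6 brightest among them, against 5184 of all 38382. Replicates 1 to 4 of lysolecithin high lay above all 5 lysolecithin low birds in each of the 6 genes, and replicate 5 overlapped them. For NID1 that bird had 5.63, against 4.76, 5.15, 5.18, 6.71 and 4.78 in the low group. Leaving out this lowest bird enlarges the contrast by construction, so the fit without it is a description of how much 1 bird decides. In it 6 of 21 passed, among them COL4A5 (2.57, adjusted p = 0.0488) and NID1 (3.36, adjusted p = 0.0456), and 0.709% of all probe sets did. For purified LPC the contrast of high with low was 0.71 to 1.53 (limma adjusted p = 0.828 to 0.847). There 0 of 21 passed, with 0.0% of all probe sets called. An unadjusted p under 0.05 was found for 1 of 21, against 2288 of all 38382.

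At the matched LPC level of 19 g/T the mixture and purified LPC were not told apart in the jejunum. Lysolecithin high minus LPC high was 0.71 for COL4A5 (95% interval -0.55 to 1.98), 0.55 for NID1 (-1.06 to 2.16), 0.39 for COL4A2 (-1.28 to 2.06), 0.38 for SPARC (-1.05 to 1.81), 0.30 for COL4A1 (-1.19 to 1.80) and 0.21 for NID2 (-0.45 to 0.87). Limma adjusted p was 0.822 to 0.947, with 0 of 21 passing, 0 at an unadjusted p under 0.05 and 0.0% of all probe sets called. The intervals allow a difference of more than 1 in either direction for COL4A1, COL4A2, NID1 and SPARC, so equal action is not shown. At 9.5 g/T lysolecithin minus LPC was -0.84 (COL4A2, 95% interval -2.51 to 0.84) to 0.01 (NID2), also with 0 of 21 passing in limma, 0 at an unadjusted p under 0.05 and 0.0% of all probe sets. These are 2 matched pairs per segment, and each p was adjusted over all probe sets within its comparison. In the ileum lysolecithin high minus LPC high was 0.25 to 1.35 (limma adjusted p = 0.998 for each), with 0.0% of all probe sets called. An unadjusted p under 0.05 was found for 3 of 21, against 1336 of all 38382. The ileum lysolecithin low minus LPC low differences were -0.50 to -0.07 (limma adjusted p = 0.791 to 0.980; 0 of 21 at an unadjusted p under 0.05), with 0.0365% of all probe sets called. High against low in the ileum was -0.92 to -0.09 for purified LPC (limma adjusted p = 0.50 to 0.912; 0 of 21 passed, 0 at an unadjusted p under 0.05; 0.0% of all probe sets). For lysolecithin it was 0.23 to 1.16 (limma adjusted p = 0.570 to 0.916), with 0 of 21 passing and 0.00521% of all probe sets called. An unadjusted p under 0.05 was found for 1 of 21, against 3733 of all 38382.

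One bird stood apart in the jejunum lysolecithin high group: replicate 5 had the lowest signal in all 6 genes. Without it the differences from control were 1.10 to 2.56 (brightest probe sets, limma adjusted p = 0.067 to 0.193), an increase that follows from leaving out the lowest bird and is no support for the difference. In that fit 2 of 21 probe sets passed, both of SPARC, Gga.17661.1.S1_s_at (2.48, adjusted p = 0.0433) and Gga.2613.1.S1_s_at (2.86, adjusted p = 0.0484), and 0.993% of all probe sets did. Gga.2613.1.S1_s_at passed as well without lysolecithin high replicate 2 (2.81, limma adjusted p = 0.0392) or LPC low replicate 5 (2.50, limma adjusted p = 0.0433). Replicate 2 had the lowest signal of its group in this probe set after replicate 5, so leaving it out also enlarges the difference by construction. LPC low replicate 5 was the highest bird of its jejunum group in all 6 genes. These fits are likewise no support for the difference. The share of all probe sets called in those fits is not given here. The mean difference from control had the same sign in all 3 batches for all 6 genes, each batch holding 1 or 2 birds a diet: NID1 gave 2.88, 1.81 and 1.83 and NID2 1.11, 0.87 and 0.83. Without the arrays in doubt the differences were 0.85 to 1.78 (adjusted p = 0.198 to 0.395). Those of LPC high from control were then 0.63 to 1.19 (limma adjusted p = 0.540 to 0.752). With arrays weighted they were 0.55 to 0.99 (limma adjusted p = 0.255 to 0.623). Both ranges are lower than the 0.67 to 1.45 with all arrays kept and unweighted.

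Signs of labelling or RNA quality moved with diet. A 5′ minus 3′ index of control transcripts averaged -0.97 in jejunum control birds (-1.17 to -0.82), -0.64 with lysolecithin high (-1.07 to -0.30) and -0.46 with LPC high (-0.60 to -0.35). The low diets lay above control as well, at -0.66 with lysolecithin low and -0.72 with LPC low. With this index as a covariate the lysolecithin high differences were 0.90 to 2.58 (limma adjusted p = 0.080 to 0.196) and those of LPC high 0.70 to 2.37 (adjusted p = 0.447 to 0.645). With the index in the fit the differences of all 6 genes were larger for both diets, for COL4A2 with LPC high 2.23 in place of 1.11. The index ranges of control and LPC high birds did not overlap, so index and diet cannot be told apart in that comparison. The part of the index in the differences was not tested.

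In the ileum all 6 genes were lower with LPC high than in control birds by their group means. Control replicate 1 was the highest control bird in all 6 genes. Leaving out each bird in turn gave differences of -1.72 to -0.89 for NID1 and -1.78 to -1.32 for SPARC. SPARC was 7.47, 6.90, 6.73, 6.53 and 6.37 in control birds and 5.46, 5.52, 5.08, 5.41 and 5.44 with LPC high. The groups did not overlap, and the LPC high birds lay close together (SD 0.17, against 0.42 in control birds). The difference was -1.51 ± 0.47 (95% interval -2.48 to -0.55), with a limma adjusted p of 0.290. NID1 was 7.97, 6.05, 6.09, 5.40 and 5.28 in control birds and 4.83, 5.00, 4.53, 5.03 and 5.19 with LPC high, again with no overlap. Its difference was -1.34 ± 0.61 (limma adjusted p = 0.470). Such separation below all controls was seen for 1.14% of all probe sets.

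COL4A2 in the ileum was 8.06, 7.13, 6.81, 6.70 and 6.09 in control birds and 5.44, 6.22, 4.52, 5.53 and 5.96 with LPC high, where 4 birds were below every control. The difference was -1.54 ± 0.66 (limma adjusted p = 0.442). COL4A1 differed by -0.97 ± 0.55, COL4A5 by -0.87 ± 0.57 and NID2 by -0.16 ± 0.20 (limma adjusted p = 0.579, 0.633 and 0.827). Of the 21 probe sets 0 passed, and 0.0% of all probe sets passed in this comparison. An unadjusted p under 0.05 was found for 4 of 21, against 3828 of all 38382. By batch SPARC was lower in each (-1.70, -1.55 and -0.94), whereas COL4A1 was lower in 2 of 3 (-1.49, -1.33 and 0.31). The ileum index averaged -0.80 in control (-1.04 to -0.72) and -0.56 in LPC high birds (-0.63 to -0.44). With the index in the fit the differences were smaller, -1.36 to -0.15, with COL4A5 at -0.58 in place of -0.87. The index ranges did not overlap here either, so index and diet cannot be told apart.

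The other ileum diets gave smaller differences, none of which passed in limma. Lysolecithin low was lower than control in all 6 means (-1.15 ± 0.61 for NID1 to -0.16 ± 0.20 for NID2; 0 of 21 at an unadjusted p under 0.05), and LPC low differed by -0.81 to -0.07 (0 of 21 at an unadjusted p under 0.05). The share of all probe sets called was 0.875% for lysolecithin low and 0.0313% for LPC low. Lysolecithin high differed by -0.59 (SPARC) to 0.34 (COL4A5), with 0 of 21 at an unadjusted p under 0.05 and 0.216% of all probe sets called. That group holds replicate 4, whose array carried jejunum markers and which was the highest of its group in all 6 genes, at 9.02 for NID1 against 4.43, 6.29, 5.94 and 5.15 in the others. Without the arrays in doubt all 6 differences were negative, -1.05 to -0.13. Within batches the sign of NID1 varied with lysolecithin high (-2.58, 0.37 and 1.80) and with LPC low (-0.68, -0.99 and 0.58), and was negative throughout with lysolecithin low (-1.74, -0.73 and -0.83).

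A test of any diet effect gave limma adjusted p of 0.231 to 0.278 for the 6 genes in the jejunum, where 0.13% of all probe sets passed. An unadjusted p under 0.05 was found there for 10 of 21, against 5314 of all 38382. In the ileum the test gave 0.353 to 0.848, with 0 of 21 at an unadjusted p under 0.05 and 0.138% of all probe sets called. Ordered by mean, most of the 10 groups of a gene overlapped with their neighbours, and the gaps between means were uneven. The largest gap was 1.31, for NID1 in jejunum LPC high over ileum lysolecithin high. Whether the groups form steps or a gradient was not tested. Of 54 neighbouring pairs in these orders, 53 had overlapping ranges and 2 had a gap above the larger SD of the pair. Those 2 were NID2 in jejunum LPC high (4.26 ± 0.48) over jejunum control (3.63 ± 0.16; SD, n = 5), the pair without overlap, and COL4A5 in ileum lysolecithin low (4.61 ± 0.19) over ileum LPC high (4.32 ± 0.14).

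Between segments of the same birds, the brightest probe sets of 3 of the 6 genes were higher in the jejunum past the threshold. Of all 13009 named genes, read in the same way, 15.5% were. The comparison pools all 5 diets. By group means the difference was larger with LPC high and lysolecithin high than with the other diets, as given below, though no test between diets passed. COL4A5 was 5.84 ± 1.20 in the jejunum and 4.91 ± 0.94 in the ileum (SD, n = 25), higher in 19 of 25 birds, and the difference was 0.93 ± 0.22 (limma with bird as a block, adjusted p = 0.0033). NID1 was higher by 1.06 ± 0.29 (adjusted p = 0.0098, 19 of 25 birds) and NID2 by 0.46 ± 0.12 (adjusted p = 0.0055, 21 of 25 birds). The brightest probe sets of COL4A1 (0.67 ± 0.25, adjusted p = 0.0592, 15 of 25 birds), COL4A2 (0.69 ± 0.31, adjusted p = 0.125, 15 birds) and SPARC (0.43 ± 0.28, adjusted p = 0.322, 14 birds) did not pass. A dimmer COL4A2 probe set, Gga.19409.1.S1_s_at, passed at 0.58 ± 0.17 (adjusted p = 0.0133), and so did Gga.2613.1.S1_s_at of SPARC at 0.89 ± 0.28 (adjusted p = 0.0220) and GgaAffx.5110.6.S1_s_at of COL4A5 at 1.04 ± 0.24.

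In all 6 of 21 probe sets passed, all higher in the jejunum, where 9.92% of all probe sets passed in that direction and 19.7% in either. Without the arrays in doubt 21 birds were left, 9 of 21 probe sets passed, against 23.6% of all probe sets, and the brightest differed by 0.86 (COL4A1), 0.87 (COL4A2), 1.15 (COL4A5), 1.25 (NID1), 0.53 (NID2) and 0.55 (SPARC). COL4A1 then passed (adjusted p = 0.021). Without the bird as a block 5 of 21 passed, against 15.8% of all probe sets.

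By diet, the mean segment difference was largest in LPC high birds for 5 of the 6 genes. In LPC high birds the jejunum exceeded the ileum in 5 of 5 birds for each of the 6 genes, by 2.56 ± 1.33 for NID1, 2.28 ± 1.33 for COL4A2, 2.07 ± 0.82 for COL4A5, 1.96 ± 0.81 for COL4A1, 1.94 ± 1.10 for SPARC and 0.88 ± 0.70 for NID2 (SD, n = 5). The share of all probe sets with 5 of 5 birds higher was not taken, so how unusual this is cannot be read. The 6 genes moved together from bird to bird, so their counts are not independent. In control birds the same differences were -0.04 for NID1, -0.12 for COL4A2, 0.26 for COL4A5, -0.10 for COL4A1, -0.54 for SPARC and 0.12 for NID2, and from 1 to 4 of 5 birds were higher in the jejunum. Lysolecithin high birds had 1.27 to 1.93 for the 5 genes other than NID2, with SDs of 1.63 to 2.06. For the 3 genes that passed between segments, LPC low means in jejunum and ileum were 6.02 and 5.51 (NID1), 5.30 and 5.04 (COL4A5), and 3.58 and 3.44 (NID2). With lysolecithin low they were 5.32 and 5.00, 5.03 and 4.61, and 3.59 and 3.34.

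**Figure D3:**
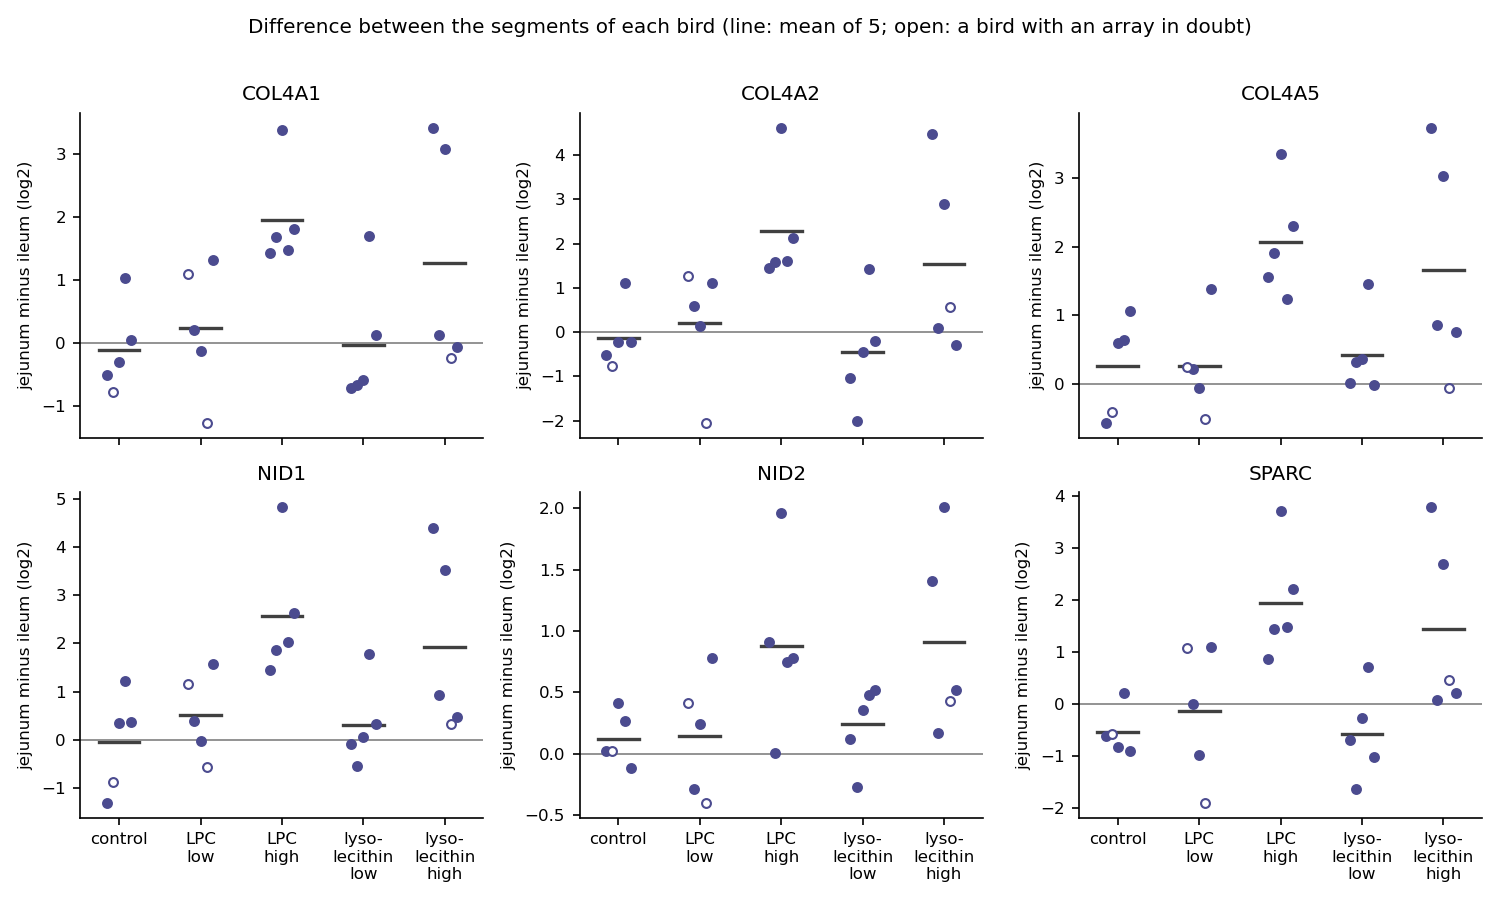
Jejunum minus ileum log2 signal of each bird (y axis) by diet (x axis) for the 6 genes, with a bar at the diet's mean and open points for birds with an array in doubt. All 5 LPC high birds lie above 0 for every gene, and the control birds lie on both sides of 0. The share of all probe sets with such a pattern was not taken.

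The test of that difference between diets did not pass for any of the 6 genes. LPC high minus control in the jejunum exceeded the same contrast in the ileum by 2.79 ± 0.72 for NID1, 2.66 ± 0.80 for COL4A2, 2.65 ± 0.68 for SPARC, 2.24 ± 0.67 for COL4A1, 1.95 ± 0.57 for COL4A5 and 0.83 ± 0.32 for NID2. Limma adjusted p was 0.513 to 0.654, with 0 of 21 passing and 0.0% of all probe sets called. An unadjusted p under 0.05 was found for 12 of 21, against 2877 of all 38382. For lysolecithin high the excess was 0.79 to 2.11 (limma adjusted p = 0.333 to 0.431), with 0 of 21 passing and 0.0% of all probe sets called. There 10 of 21 had an unadjusted p under 0.05, against 4283 of all 38382. The test over all diets together gave 0.342 to 0.435, with 0.00521% of all probe sets called. Without the arrays in doubt the LPC high excess was 0.83 to 2.63.

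LPC high replicate 3 lay at opposite ends of its group in its segments. It had the highest signal of its group in the jejunum for all 6 genes (NID1 9.35, SPARC 8.80, COL4A2 9.14) and the lowest in the ileum for all 6 (NID1 4.53, SPARC 5.08, COL4A2 4.52). Over all 25 birds the jejunum signal of a gene did not track the ileum signal of the same bird past adjustment. Pearson's r was 0.41 for COL4A5, 0.38 for COL4A1, 0.35 for NID1, 0.25 for COL4A2, 0.24 for NID2 and 0.08 for SPARC (permutation adjusted p = 0.163 to 0.695 over the 6 genes), and Spearman's rho was -0.03 to 0.33 (permutation adjusted p = 0.397 to 0.872). Leaving out the 2 birds farthest from the jejunum median gave r of -0.20 to 0.47, and the batches gave -0.41 to -0.04, -0.15 to 0.36 and 0.50 to 0.78. With the diet means removed r was 0.21 (NID2) to 0.49 (COL4A5), and these values were not tested.

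Within a segment, by contrast, the 6 genes moved together from bird to bird. Over the 25 jejunum arrays Pearson's r between genes was 0.846 to 0.978 in the 15 pairs (median 0.953), and Spearman's rho was 0.840 to 0.985. COL4A2 and SPARC had the highest r and COL4A2 and NID2 the lowest. Every permutation p was 1e-05, the smallest that 100000 resamples can give, and 1.2e-05 after adjustment over all 30 pairs of both segments for r. Without the 2 farthest birds r was 0.799 to 0.979, with diet and batch removed 0.789 to 0.973, and the lowest value in any batch was 0.771.

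In the ileum r was 0.714 to 0.963 (median 0.869) and rho 0.549 to 0.947, with permutation p up to 0.00145 for r and 0.00487 for rho. The COL4A1 and NID1 pair was the closest and COL4A5 and NID2 the least close. Without the 2 farthest birds r was 0.493 to 0.937 and without the arrays in doubt 0.493 to 0.946. In batch 1 the lowest r was 0.098, so the weakest ileum relations did not hold in every batch. Signals of a bird come from the same array and share its RNA, labelling and cell makeup.

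Among all 13009 named genes, the 3 nearest to each gene were taken by mean r over both segments. COL6A3 (0.973), a collagen VI chain, FN1 (0.969), fibronectin, and EFEMP1 (0.969), an extracellular matrix glycoprotein, were nearest to COL4A1. COL6A3 (0.974), COL4A1 (0.967) and EFEMP1 (0.963) were nearest to NID1. For COL4A2 they were IGFBP7 (0.968), a secreted binding protein of vessels and stroma, C11orf96 (0.967) and COL4A1 (0.965), and for SPARC COL1A1 (0.958), the main chain of collagen I, SLC9A3R2 (0.950) and COL4A2 (0.949). COL4A5 was nearest to TGFBI (0.959), a secreted matrix protein induced by TGF-beta, NID1 (0.956) and COL12A1 (0.946). NID2 stood a little apart with GJA1 (0.892), a gap junction protein, TCF21 (0.886), a transcription factor of mesenchymal cells, and GAS6 (0.885). Each r is over 25 arrays per segment.

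The 21 probe sets fell into those that varied and those that hardly did. Over the 50 arrays 11 had a range above 2 and 10 a range under 1.5, and none lay between. The 11 held all 3 of SPARC, 3 of 6 for COL4A2, 2 of 4 for COL4A5, 1 of 3 for COL4A1, 1 of 4 for NID1 and the single one of NID2. The brightest NID1 probe set had an SD of 1.42, above that of 99.6% of all probe sets, and the NID2 probe set 0.53, above 91.1%. Where a gene had further varying probe sets they followed the brightest, though not equally closely. GgaAffx.5110.6.S1_s_at of COL4A5 had r of 0.991 in the jejunum and 0.968 in the ileum, and Gga.19409.1.S1_s_at of COL4A2 0.961 and 0.907. Less close were Gga.2613.1.S1_s_at of SPARC (0.941 and 0.854) and GgaAffx.25090.1.S1_s_at of COL4A2 (0.911 and 0.728). The flat probe sets of COL4A1, COL4A2, COL4A5 and NID1 had r of -0.32 to 0.64 with the brightest in the jejunum, so the probe sets of these genes disagree, and the values above are those of the varying ones.

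**Figure D4:**
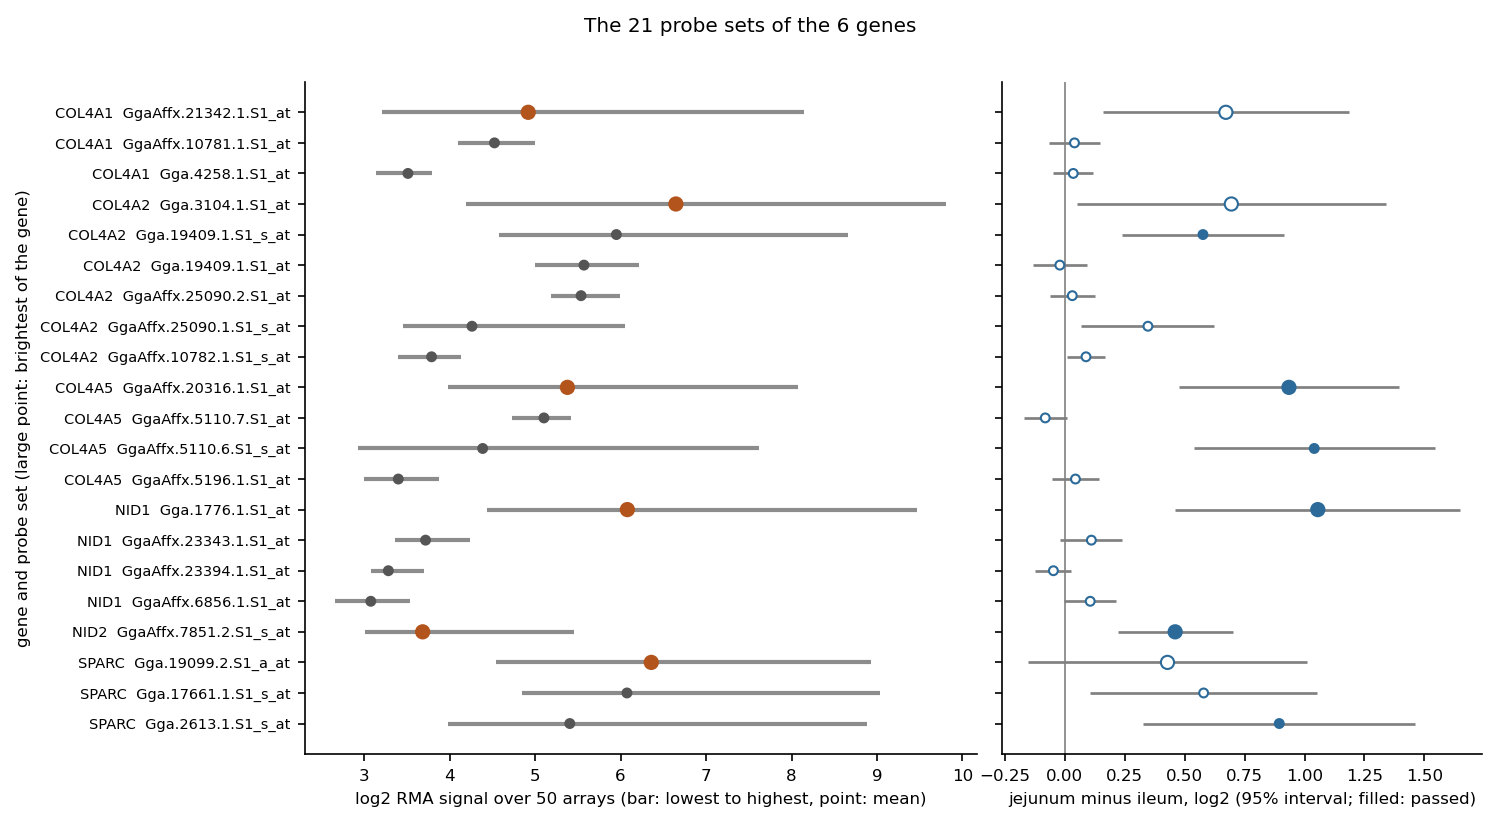
All 21 probe sets of the 6 genes (y axis). The left panel shows the log2 signal over the 50 arrays as mean and range (large point, brightest of the gene), and the right panel the jejunum minus ileum difference (log2) with its 95% interval, filled where it passed. The wide bars at left are the 11 varying probe sets, whose differences at right all lie above 0, and those of the 10 flat ones lie close to 0.

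Genes related to these 6 were described by lists. For lysolecithin high against control in the jejunum 0 of the 149 genes on these and the marker lists passed in limma. An unadjusted p under 0.05 was found for 43 of them, against 6828 of all 38382 probe sets. Fibrillar and associated collagens had a median of 1.47 over 11 genes with 10 positive, close to the 1.54 of the 6 genes, and COL3A1 differed by 1.65 ± 0.74 (adjusted p = 0.253) and COL6A2 by -0.52 ± 0.70 (adjusted p = 0.732). The other basement membrane components, among them laminin chains, perlecan and agrin, had a median of -0.02 over 27 genes with 12 positive. TINAG (0.33 ± 0.12, adjusted p = 0.184) and LAMA3 (-0.41 ± 0.29, adjusted p = 0.472), a laminin chain of epithelia, were the brightest of them. Enzymes and chaperones that fold, modify and crosslink collagen IV had a median of 0.22 over 12 genes with 11 positive, with P4HB, a subunit of prolyl hydroxylase, at 0.26 ± 0.13 (adjusted p = 0.302).

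Receptors for collagen and laminin had a median of -0.09 over 10 genes, with ITGB1 at 0.30 ± 0.16 (adjusted p = 0.341) and ITGA6 at -0.16 ± 0.09 (adjusted p = 0.391). Other members of the SPARC family and matricellular proteins had a median of -0.00 over 10 genes, with FSTL1 at 0.08 ± 0.11 (adjusted p = 0.721). The mean signals of this list were low, from 2.91 (SPOCK3) to 6.16 (FSTL1). Proteases and their inhibitors had a median of 0.08 over 8 genes, with TIMP3 at -0.75 ± 0.38 (adjusted p = 0.311), and genes of TGF-beta signalling 0.34 over 9 genes with 8 positive. Of these lists the fibrillar collagens had the median nearest to that of the 6 genes. The median over all genes was 0.03.

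Lists of cell type markers were read beside the 6 genes in the jejunum, and none of their genes passed in limma. With lysolecithin high, smooth muscle markers had a median difference of 0.99 with 8 of 8 positive, and fibroblast and pericyte markers 0.62 with 10 of 10 positive. Red cell genes had a median of 1.08 with 3 of 3 positive, endothelial markers 0.16 with 9 of 12 positive and epithelial markers -0.06 with 2 of 6 positive. Genes of proliferating cells had a median of 0.48 with 5 of 5 positive, macrophage markers 0.40 with 2 of 4, T cell markers 0.09 with 5 of 6 and markers of enteric neurons and glia -0.00 with 4 of 8. The mean level of the smooth muscle list was 5.24, 4.46, 4.94, 5.79 and 4.54 in jejunum control birds and 6.22, 5.25, 6.65, 6.71 and 4.60 with lysolecithin high. Replicate 5, the lowest bird of its group in the 6 genes, was also the lowest here. The macrophage list averaged 6.73, 6.43, 6.33, 6.85 and 6.10 in jejunum control birds and 7.30, 6.48, 7.21, 7.22 and 6.25 with lysolecithin high, and the list of proliferating cells 6.54 to 7.77 and 6.44 to 8.31. Replicate 5 was the lowest of its group in both of these lists as well, and both overlapped between the diets. MGP, a matrix protein of the fibroblast list, differed by 2.43 ± 0.72 (adjusted p = 0.103), and MYLK of the smooth muscle list by 1.66 ± 0.87 (adjusted p = 0.319). Neither gene was the brightest of its list. The fibroblast and pericyte list averaged 4.82 to 5.37 in control birds and 5.15 to 6.95 with lysolecithin high. The signals carry no detection call and no true zero, so absence of a marker cannot be read from them, and the part of these cells in the result was not tested.

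For LPC high in the jejunum smooth muscle markers had a median of 0.54 (8 of 8 positive), fibroblast and pericyte markers 0.46 (10 of 10) and fibrillar collagens 0.97 (8 of 11), against 1.12 for the 6 genes. Red cell genes had 0.45 (2 of 3), macrophage markers 0.36 (3 of 4), endothelial markers 0.15 (9 of 12) and proliferating cells -0.20 (1 of 5). In the ileum LPC high comparison these lists had medians of -0.42, -0.37 and -0.74, with 3 of 8, 0 of 10 and 2 of 11 positive, against -1.16 for the 6 genes. Proliferating cells had -0.61 (0 of 5), red cell genes -0.41 (1 of 3), endothelial markers 0.10 (7 of 12) and macrophage markers 0.02 (2 of 4). The mean of the fibroblast and pericyte list was 4.95 to 5.76 in ileum control birds and 4.40 to 4.84 in LPC high birds, which did not overlap. The means of the fibrillar collagen and proliferating cell lists did not overlap either, whereas those of the smooth muscle, endothelial, macrophage and red cell lists did. Of single probe sets 1.14% lay wholly below all controls in this comparison. No such share was taken for means of lists, so how unusual these separations are cannot be read. With LPC high 0 of the 149 listed genes passed in limma in either segment, where 0.112% of all probe sets did in the jejunum and 0.0% in the ileum. In the jejunum 15 of the 149 had an unadjusted p under 0.05, against 4179 of all 38382 probe sets. In the ileum 34 of the 149 did, against 3828 of all 38382. The part of these lists in the result was not tested.

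**Figure D5:**
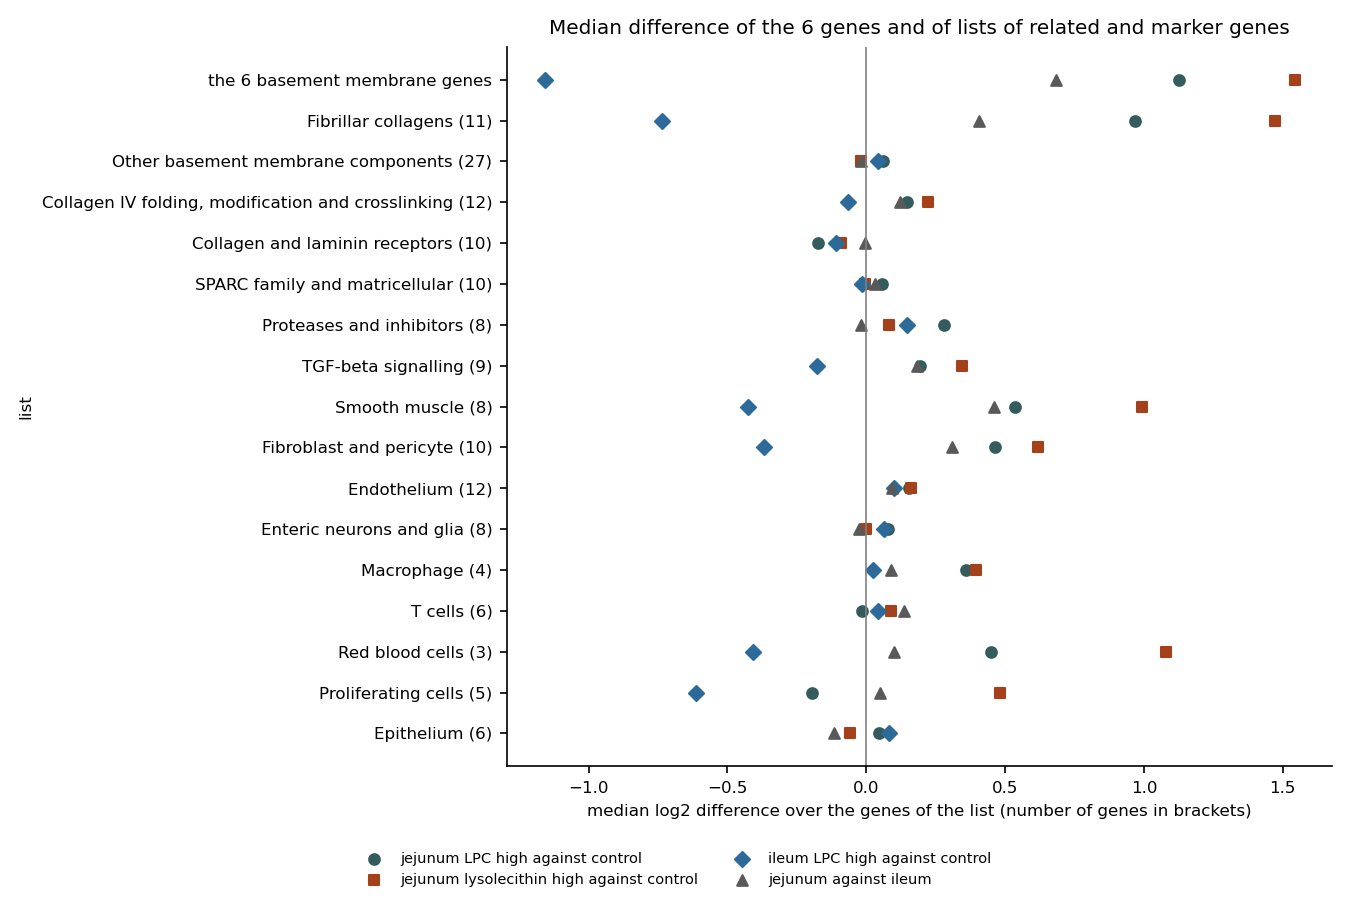
Median log2 difference (x axis) of the 6 genes and of the lists of related and marker genes (y axis, number of genes in brackets) for LPC high and lysolecithin high against control in the jejunum, LPC high against control in the ileum, and jejunum against ileum. The median of the 6 genes lies farther from 0 than that of any list in each of these 4 comparisons, and fibrillar collagens come next in the 3 diet comparisons. Several lists hold many dim genes, whose differences are limited by signal over background.

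Between segments 15.5% of the 13009 named genes were higher in the jejunum past the threshold and 11.3% lower, and the counts of each list are to be read against these shares. Fibrillar and associated collagens had 6 of 11 genes higher in the jejunum past the threshold and 0 lower, led by COL6A1 (0.91 ± 0.31, adjusted p = 0.0404), COL5A1 (0.76 ± 0.25, adjusted p = 0.0327), COL6A3 (0.74) and COL12A1 (0.62). The other basement membrane components had 4 of 27 higher and 5 lower, close to the shares over all genes. COL18A1, a collagen of vessel and epithelial basement membranes, was higher in the jejunum by 0.54 ± 0.13 (adjusted p = 0.0042), and LAMA4, a laminin chain of vessels and muscle, by 0.26 ± 0.08 (adjusted p = 0.0222). FBLN1, a fibulin that binds nidogen, differed by -1.86 ± 0.35 (adjusted p = 0.0003), and the laminin chain LAMA3 by -0.34 ± 0.11 (adjusted p = 0.0296).

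Collagen folding and modification genes had 5 of 12 higher and 2 lower. SERPINH1, the collagen chaperone HSP47, was higher by 0.78 ± 0.27 (adjusted p = 0.0447) and the lysyl hydroxylase PLOD1 by 0.43 ± 0.10 (adjusted p = 0.0020), while the prolyl hydroxylase subunits P4HA1 and P4HA2 differed by -0.36 each. Receptors had 1 of 10 higher (ITGB4, 0.23) and 3 lower (DAG1, dystroglycan, -0.45; ITGA6, -0.21; ITGB1, -0.21). Among proteases and inhibitors 0 of 8 were higher and 3 lower, with MMP7 at -2.49 ± 0.45 (adjusted p = 0.0002) and TIMP3, a matrix-bound protease inhibitor, at -0.84 ± 0.19. TGF-beta signalling had 4 of 9 higher and 0 lower (TGFB3 at 0.33, SMAD3 at 0.26), and the SPARC family 1 of 10 higher (TNC, tenascin-C, 0.17). Smooth muscle markers had 5 of 8 higher, fibroblast and pericyte markers 3 of 10 and endothelial markers 2 of 12, each with 0 lower, and epithelial markers 0 higher and 3 of 6 lower. T cell markers had 1 of 6 higher, macrophage markers 1 of 4 lower, neurons and glia 1 of 8 each way, and red cells and proliferating cells 0. Counts such as 2 of 12 or 1 of 6 lie near the share over all genes. Their part in the segment difference was not tested.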

How the data were processed

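RNA of 50 mucosal scrapings was measured on the Affymetrix chicken genome array, and per the labels only RNA with an integrity number above 8.7 was used. The authors deposited a log2 signal for each probe set, and the submitters' processing notes name RMA, which corrects background, equalises arrays and summarises probes. These notes also name limma, and versions and a genome build are not given in the sources used here, so no coordinates are printed. The signals ran from 1.84 to 13.99 and array medians from 4.57 to 4.70, and they were used as deposited. RMA equalises the arrays, so each difference is relative to the bulk of probe sets.

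Of 38535 probe sets 153 controls were left out. The platform annotation gave 27168 a single symbol. limma 3.58.1 in R 4.3.3 fitted the 25 arrays of a segment with diet and batch as terms, and p was adjusted by Benjamini-Hochberg over 38382 probe sets at 0.05. Segments were compared with bird as a block, since the labels give both arrays of a bird, and diet by segment effects on each bird's difference. Correlations used 100000 permutations. The fit was tested on simulated data. The genes, the lists and the checks of arrays in doubt and of the 5′ minus 3′ index were chosen with earlier results of these data known, and correlations between segments were added after the data were seen. Of the related lists, genes past the threshold were named, the largest first, or else genes from among the brightest. CTSB, the brightest of the proteases and inhibitors, was not named. MGP and MYLK of the marker lists were not chosen by brightness. The labels do not say that birds of a feed came from separate pens, so p measures the spread between birds. The number of arrays limits precision. As alternatives, batch was dropped or made random, dim probe sets were left out, the prior was given a trend and made robust, arrays were weighted or centred, segments were fitted jointly, diets were fitted in pairs, and each bird was left out in turn.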

Additional observations from a re-analysis of the deposited data

Results flagged for a closer look

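Each of the 6 genes was checked in each group of 5 birds, which gave 60 sets of values from the same birds. A bird was counted as standing far from the others where its gap exceeded Dixon's limit. Chance gives this in about 1 in 20 independent sets (3 expected, 5 seen). The genes moved together from bird to bird, so these sets are not independent. COL4A1 in jejunum lysolecithin low replicate 4 was 5.77, against 3.61 to 4.00 in the other 4 birds, and NID1 in the same bird was 6.71, against 4.76 to 5.18. NID2 in jejunum LPC high replicate 3 was 5.10, against 3.89 to 4.14, and this bird is the one that was highest of its group in all 6 jejunum genes. SPARC in its ileum was 5.08, against 5.41 to 5.52 in the others. NID2 in ileum LPC low replicate 5 was 3.73, against 3.30 to 3.41. None of these 5 values comes from an array in doubt.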

How the results depend on the processing

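In most comparisons 0 probe sets of the 6 genes passed, so their count can move little. Each comparison was paired with each alternative that applied to it, and 192 entries were recorded as staying within 1.5 times and 5 as moved. The 192 include a few entries for the correlations between genes, which hold no such count and were not compared. Where a bird was left out, 496 pairs of comparison and bird stayed and 4 moved. For single genes, 1068 values kept their sign and side of the threshold under the alternatives, other probe sets of the gene among them, 119 changed sign below the threshold, 6 came to pass, 3 no longer passed and 2 reversed. On leaving out a bird 2472 kept both, 70 changed sign below the threshold and 8 came to pass. For jejunum against ileum the 6 probe sets became 2 where only probe sets with a mean above 6 were tested, which leaves 4 of the 21, and 10 with array weights. There were 5 without the bird as a block (no pairing), 8 with the 5′ minus 3′ index, 9 without the arrays in doubt and 6 to 9 on leaving out each bird. LPC high against control in the jejunum gave 1 with only the 2 groups compared (COL4A2, GgaAffx.25090.1.S1_s_at, 0.91, adjusted p = 0.0398). With jejunum and ileum fitted jointly and the bird as a random replicate block, lysolecithin high against control gave 1 (SPARC, Gga.2613.1.S1_s_at, 2.41, adjusted p = 0.0306). In that joint fit the test of any jejunum diet gave 2 (adjusted p = 0.0481 and 0.0402). For these fits, and those with array weights, the index or bright probe sets only, the share of all probe sets is not given. Their counts can therefore not be set against it. Leaving out each bird gave 0 to 2 for lysolecithin high against control and 0 to 6 for lysolecithin high against low, where leaving out replicate 5, the lowest bird, gave the highest counts. The sign of jejunum minus ileum was reversed in a flat probe set of COL4A5 (-0.082, adjusted p = 0.200) and one of NID1 (-0.048, adjusted p = 0.400), neither of them past the threshold. A flat probe set of COL4A2, whose brightest did not pass either, was also negative (-0.021, adjusted p = 0.836). The cause of these changes was not tested. Signal over background limits the flat and dim probe sets, NID2 among the dim ones, and 5 birds a diet leave intervals of more than 1 on either side of most differences.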
